A study of Mus musculus with 9 samples.

Results

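The genes described here encode ligands and receptors that set the tone of smooth muscle in the oviduct, other than those of prostaglandins. They were chosen by symbol: the endothelins Edn1, Edn2 and Edn3, the endothelin receptors Ednra and Ednrb, the oxytocin receptor Oxtr, the vasopressin receptor Avpr1a, the adrenergic receptor Adra1a and the endothelial nitric oxide synthase Nos3. Of these 9 genes, 7 had a probe set annotated with that symbol alone, among 19937 genes with such a probe set. Each of the 7 had 1 probe set, and Ednra and Adra1a were not analysed here. RNA came from whole oviducts of untreated CD1 female mice, that is, animals given no hormones. The 3 groups were sexually immature females at day 21 and mature females taken either in estrus or in diestrus. Each group had 3 Affymetrix arrays, and every array carried tissue pooled from 5 animals. Estrus is the stage around ovulation, and diestrus is the stage ruled by progesterone. The labels do not give the age of the mature females, or say how the pools of a group were kept apart. A p-value here measures the spread between arrays of pools within groups, not between single animals. That spread is estimated from all 9 arrays together.

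The deposited values are log2 intensities after robust multi-array averaging (RMA), on 28214 probe sets with array medians of 8.85 to 8.90. Arrays of 1 group correlated at 0.992 to 0.996, and no pair of arrays was identical. Markers of epithelium and of muscle gave signal. All 5 measured genes of epithelium (Pax8, Epcam, Krt8, Krt18, Cdh1) lay above the median of every array. So did all 6 of ciliated epithelium (Foxj1 among them) and all 10 of smooth muscle (Myh11 among them). The secretory gene Ovgp1, listed with the first 5, was not measured. In bulk tissue, fewer cells of a type and less RNA per cell cannot be told apart.

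Muscle of the oviduct wall moves eggs and embryos by waves of contraction, and its tone is set by signals from epithelium, vessels and nerves. Endothelins are short peptides cut from larger precursors; the A receptor on muscle raises calcium and contracts it, while the B receptor on endothelium releases nitric oxide and relaxes muscle nearby, and can contract where muscle itself carries it. Oxytocin, vasopressin and noradrenaline reach receptors coupled to the same Gq and calcium route. Nitric oxide, and the natriuretic peptides by receptors of their own, raise cyclic GMP and lower tone.

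Upstream sequences are given for a pair of genes: Oxtr, which had the largest difference from immature oviduct among the ligands and receptors in diestrus, and Npr2, the one gene that passed the test among the other genes of muscle tone described further on. Each stretch is the 250 bases before the start site in RefSeq (GRCm38.p6), read 5′ to 3′ on the gene's own strand. The Oxtr window is chr6:112489826-112490075 on the minus strand and the Npr2 window is chr4:43631685-43631934 on the plus strand. Capitals mark GGTCA, the core of an estrogen response element, searched on both strands.
Oxtr: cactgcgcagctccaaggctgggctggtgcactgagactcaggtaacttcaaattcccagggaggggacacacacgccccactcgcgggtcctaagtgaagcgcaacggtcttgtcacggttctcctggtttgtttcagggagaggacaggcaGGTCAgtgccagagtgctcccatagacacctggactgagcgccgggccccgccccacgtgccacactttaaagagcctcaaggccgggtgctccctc
Npr2: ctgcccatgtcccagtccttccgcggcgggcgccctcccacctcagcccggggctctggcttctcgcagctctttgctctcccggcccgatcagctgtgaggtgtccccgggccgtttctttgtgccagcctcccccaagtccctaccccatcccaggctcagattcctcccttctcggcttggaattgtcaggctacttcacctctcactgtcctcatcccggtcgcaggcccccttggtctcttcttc
Oxtr holds 1 such core, at position -97 from the start site, and Npr2 holds 0. Of all 32851 windows of this length, 35.2% hold the core, so the match is common. The full palindrome GGTCANNNTGACC occurs in 0.0639% of windows and in neither of these. Among the listed genes, 7 had a window in the table and 1, Oxtr, held the core.

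Among the ligands, endothelin 1 was the gene with signal above the median of every array. Edn1 read 10.14, 10.05 and 10.09 on immature arrays 1, 2 and 3, then 10.03, 10.30 and 9.83 in estrus and 10.14, 10.36 and 9.95 in diestrus. The immature arrays lay close together, and the estrus and diestrus arrays lay on either side of them. The group means were 10.09 ± 0.05, 10.05 ± 0.23 and 10.15 ± 0.21 (SD, n = 3 each), and their order does not hold beyond that spread. Diestrus minus estrus was 0.10 ± 0.13 (SE; limma adjusted p = 0.947), with a 95% interval of -0.18 to 0.38.

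The highest Edn1 value was on diestrus 2. That array and immature 2 also had the highest mean of 10 ovarian follicle and luteal markers, 9.47 and 9.10 against 7.97 to 8.62 on the other arrays. Immature 2 had the lowest Edn1 value of its group, 10.05, and estrus 2, with a marker mean of 8.14, read 10.30. The part of ovarian tissue in the Edn1 values was not tested beyond refits without these arrays or with the marker mean as a covariate. Without diestrus 2, diestrus minus estrus for Edn1 was -0.01 ± 0.13.

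Endothelin 2, which contracts muscle around the ovulating follicle, gave values of 8.28, 8.42 and 8.38 in immature oviduct. Edn2 read 8.46, 8.33 and 8.28 in estrus and 8.38, 8.38 and 8.39 in diestrus. All 9 lay within 0.18 log2 units and the groups overlapped. No difference between group means exceeded 0.03, and all 3 adjusted p-values were at least 0.917 in the limma fit. Endothelin 3, best known for its role in nerve and pigment cells, varied more, over 0.40 log2 units. Edn3 spanned 8.33 to 8.47 in immature oviduct, 8.07 to 8.45 in estrus and 8.21 to 8.44 in diestrus, with its lowest value on estrus 2. Its means were 8.38 ± 0.08, 8.26 ± 0.19 and 8.31 ± 0.12 (SD, n = 3 each), and the groups overlapped. Signal of both genes was under the median on all 9 arrays and may be background, so their values bound a change in intensity and not in RNA.

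The endothelin B receptor gene had lower values in estrus. Ednrb read 9.13, 8.89 and 8.92 in immature oviduct, 8.85, 8.53 and 8.74 in estrus, and 8.73, 8.75 and 9.19 in diestrus. All 3 estrus arrays lay below all 3 immature arrays, which held for 6.62% of all probe sets. The difference was -0.28 ± 0.13 (SE; limma adjusted p = 0.794), and its 95% interval ran from -0.57 to 0.02. It missed the threshold, and the estrus mean rested in part on estrus 2: without that array the difference was -0.19 ± 0.14. Diestrus differed from immature by -0.09 ± 0.13 and from estrus by 0.18 ± 0.13. The latter was 0.09 ± 0.14 without estrus 2 and 0.03 ± 0.11 without diestrus 3. Diestrus 3 stood apart from the other diestrus arrays, and without it the diestrus difference from immature was -0.24 ± 0.11 (limma adjusted p = 0.338). Ednrb lay near the array median, below it on 5 of 9 arrays.

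The oxytocin receptor gene had higher means at both mature stages than in immature oviduct. Oxtr read 8.41, 8.43 and 8.17 in immature oviduct, 8.78, 8.40 and 8.58 in estrus, and 8.52, 8.48 and 8.81 in diestrus. All diestrus arrays lay above all immature arrays, which held for 7.52% of probe sets, while estrus 2 fell within the immature range. Diestrus exceeded immature by 0.27 ± 0.12 (SE; limma adjusted p = 0.381) and estrus exceeded it by 0.25 ± 0.12 (adjusted p = 0.793). Without estrus 1 the estrus difference was 0.16 ± 0.12. The mean of both mature stages against immature, 0.26 ± 0.11, had the one unadjusted p under 0.05 among the 7 genes, 0.033, and an adjusted p of 0.443. At that level 10% of probe sets pass. Estrus and diestrus differed by 0.01 ± 0.12, with an interval of -0.26 to 0.29. Without diestrus 3, diestrus minus immature fell to 0.16 ± 0.12, and without immature 3, the lowest of the 9, it was 0.18 ± 0.13. The signal of Oxtr was under the median on all 9 arrays and may be background.

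The vasopressin 1a receptor, which also binds oxytocin, differed little. Avpr1a read 8.43, 8.44 and 8.30 in immature oviduct, 8.53, 8.33 and 8.23 in estrus, and 8.48, 8.46 and 8.57 in diestrus. The diestrus arrays lay just above the immature ones, as for 7.52% of probe sets, and overlapped with estrus 1. Diestrus minus immature was 0.12 ± 0.08 (SE; limma adjusted p = 0.607) and diestrus minus estrus 0.14 ± 0.08 (adjusted p = 0.71). Single arrays moved both: the difference from immature was 0.07 ± 0.09 without immature 3, and that from estrus was 0.07 ± 0.08 without estrus 3 and 0.22 ± 0.07 without estrus 1. Its 9 values were also under the array medians and may be background.

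Nos3, which makes nitric oxide in endothelium, had signal above the median of every array and varied less than Edn1. It read 8.99, 9.07 and 9.03 in immature oviduct, 9.10, 9.05 and 9.10 in estrus, and 8.95, 9.05 and 9.17 in diestrus. All groups overlapped, and the largest difference between group means was 0.05 ± 0.06, for estrus minus immature (limma adjusted p = 0.896).

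**Figure D1:**
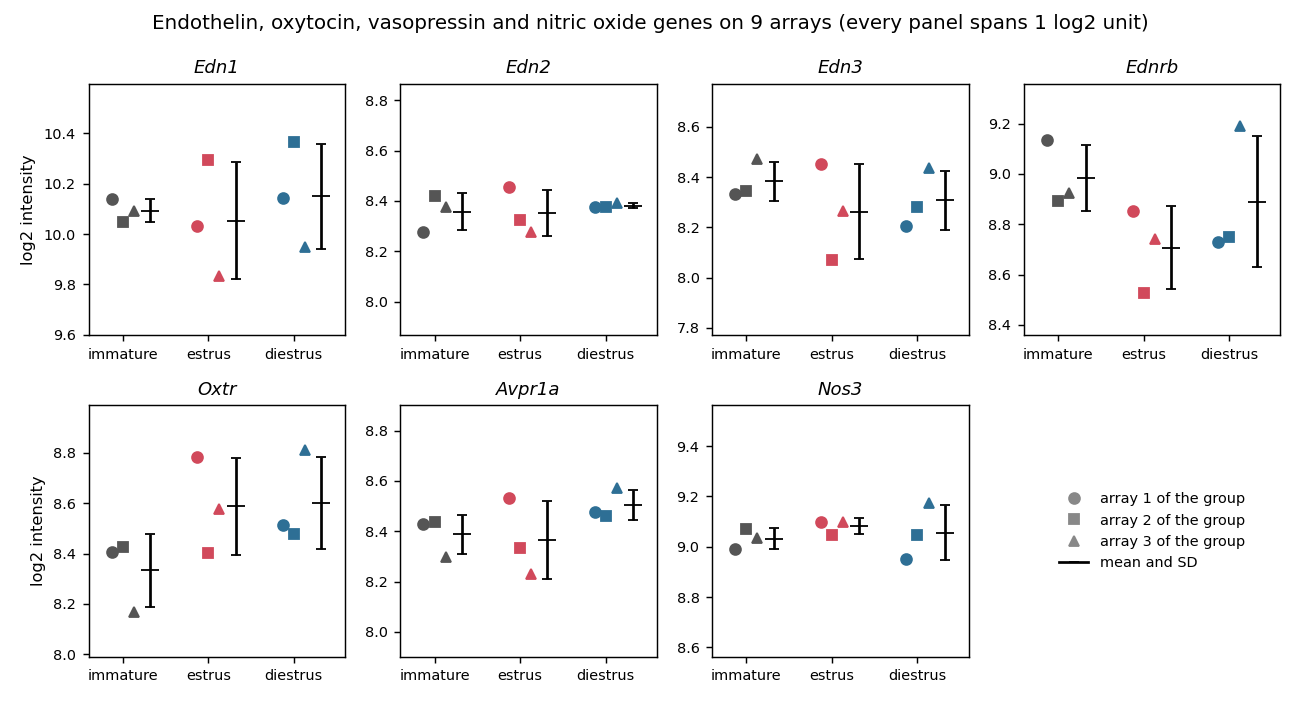
Log2 intensity (y axis, 1 unit in every panel) of the 7 measured genes in immature, estrus and diestrus oviduct. Points are arrays, with marker shape for the array's number, and bars are mean ± SD of 3 arrays. Edn2 and Nos3 vary least; the Ednrb points of estrus lie below those of immature, and the Oxtr points of diestrus lie above them.

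Over the 3 pairwise comparisons, limma called 0 of the 7 genes in each at an adjusted p under 0.05, and 0 had an unadjusted p under 0.05. The same rule called 0.0851% of all probe sets in estrus against immature, 1% in diestrus against immature and 0.159% in diestrus against estrus, and 6.52%, 13.4% and 9.33% had an unadjusted p under 0.05. The F test of any difference among the 3 groups called 0 of 7 (adjusted p from 0.532 for Oxtr to 0.972 for Edn2), against 0.574% of probe sets. The mean of both mature stages against immature also gave 0 calls, against 0.432%. Both comparisons with immature oviduct share the same 3 immature arrays. Groups did not overlap in 3 of 21 gene-by-comparison cases: Ednrb in estrus and Oxtr and Avpr1a in diestrus, each against immature. The estrus and immature arrays did not overlap for 9.8% of probe sets, diestrus and immature for 18.4%, and diestrus and estrus for 11.8%.

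The intervals bound how large a change in intensity these arrays leave room for. For Edn2, no 95% interval reached beyond 1.12-fold in either direction, and for Nos3 none reached beyond 1.14-fold. The bounds were 1.25-fold for Avpr1a, 1.27-fold for Edn3, 1.30-fold for Edn1, 1.45-fold for Oxtr and 1.49-fold for Ednrb. The median differences of the 7 genes were -0.02, 0.02 and 0.05 for estrus minus immature, diestrus minus immature and diestrus minus estrus, beside 0.01, 0.01 and -0.01 over all probe sets. Higher means in diestrus than in estrus were seen for 6 of 7 genes, all but Nos3, against 46.9% of all probe sets, and none passed the test. In the same comparison means were higher for 12 of 12 endothelial, 6 of 6 pericyte and 9 of 10 smooth muscle markers. They were also higher for 9 of 10 ovarian follicle and luteal, 8 of 9 oocyte and cumulus and 6 of 6 uterine-side markers. Counts were 5 of 7 for leukocyte, 4 of 6 for mesothelial, 3 of 5 for secretory and 3 of 7 for nerve and glia markers. For fat cell and ciliated markers they were 2 of 6 each. The part of any of these in the count for the 7 genes was not tested.

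**Figure D2:**
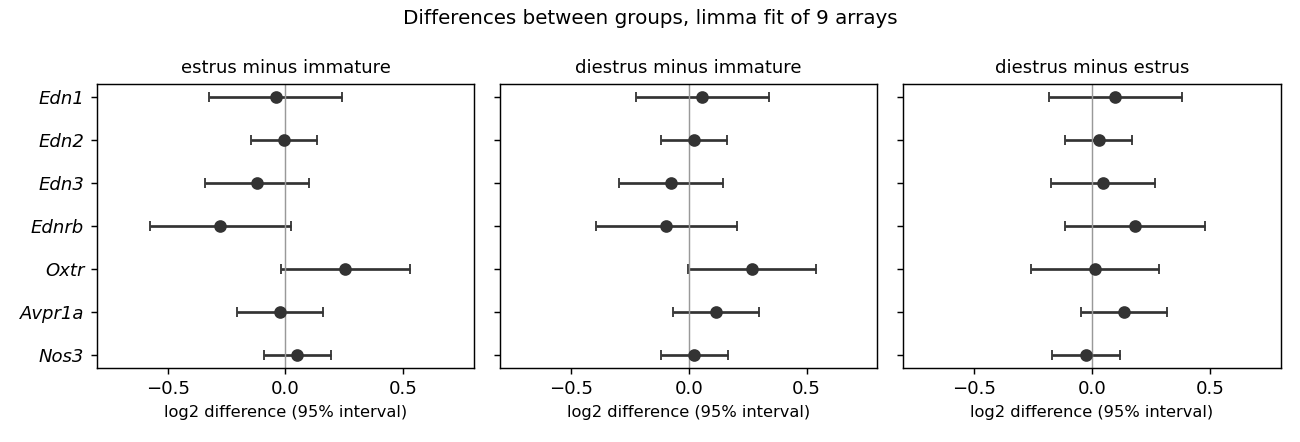
Log2 difference between group means (x axis) for the 7 genes in 3 comparisons, with 95% intervals from the limma fit of 9 arrays. Every interval includes 0; those of Oxtr against immature and of Ednrb for estrus minus immature reach it only at their ends.

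Diestrus 3 gave the highest of the 9 values for 4 of the 7 genes, Ednrb, Oxtr, Avpr1a and Nos3, where 10.9% of all probe sets had their highest value on that array. The smooth muscle markers moved with it: 9 of 10 were highest there, and their mean was 11.62, against 10.97 and 10.99 on the other diestrus arrays, 10.88 to 11.10 in immature oviduct and 10.96 to 11.05 in estrus. So did 5 of 6 pericyte markers (mean 10.18, against 9.42 to 9.65 elsewhere) and 10 of 12 endothelial markers (9.54, against 9.13 to 9.36). Homeobox genes of the uterine side of the tract had a mean of 8.77 there and 8.05 to 8.31 elsewhere. Of these 6 genes 4 were highest there, among them Hoxd10 at 10.21 and Hoxd11 at 9.38. Hoxa13 and Hoxd13, at 7.95 and 7.98 there, were not, and 3 of the 6 lay below the median on all 9 arrays. Of the muscle, pericyte and endothelial markers, 1, Erg of endothelium, lay below the median on all 9 arrays. The ovarian marker mean was 8.62 on diestrus 3, against 7.966 to 8.143 on the arrays other than immature 2 and diestrus 2. The leukocyte marker mean was 8.941 there and 8.546 to 8.735 elsewhere. Means of mesothelial markers and of the 5 epithelial genes, 10.833 and 12.09 there, were the lowest of the 9 arrays. The part of muscle, vessels, ovary, leukocytes or the uterine side in these values was not tested beyond the fit that follows and the refit with the ovarian marker mean.

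With the mean of the smooth muscle markers as a covariate in the fit, diestrus minus immature was 0.20 ± 0.13 for Oxtr and -0.22 ± 0.11 for Ednrb (limma adjusted p = 0.517 and 0.381). Estrus minus immature kept its size in that fit, at 0.25 ± 0.12 for Oxtr and -0.28 ± 0.10 for Ednrb. None of the 7 genes was called in it. The share of all probe sets called in that fit is not given on its own here.

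**Figure D3:**
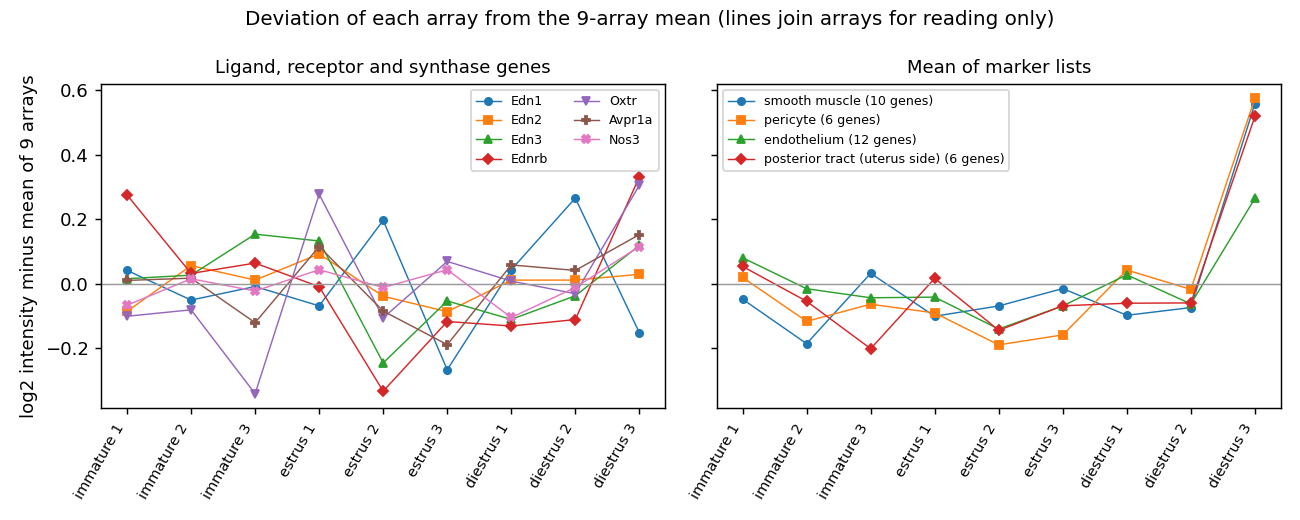
Log2 intensity on each array minus the mean of 9 arrays (y axis), for the 7 genes (left) and for the mean of 4 marker lists (right); lines join arrays for reading only. All 4 lists peak on diestrus 3, where Ednrb, Oxtr, Avpr1a and Nos3 also have their highest points.

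The genes most like the 3 members with the largest F (Oxtr, Ednrb and Avpr1a) were found by Pearson correlation over the 9 arrays among 16774 other protein-coding genes. The arrays share their group and tissue makeup, and the best of so many correlations over 9 points is high by selection. For Oxtr they were Tmem255b (r = 0.96), Fermt3 (0.95) and Hrh1 (0.95), the last a histamine receptor. For Ednrb they were the lysophosphatidic acid receptor gene Lpar4 (0.97), Nynrin (0.95) and Apod (0.95), all highest on diestrus 3 and lowest on estrus 2, like Ednrb itself. For Avpr1a they were the protein C receptor gene Procr (0.95), Chp2 (0.94) and Hgfac (0.94), highest on diestrus 3 and lowest on estrus 3. None of these 9 genes had an F adjusted p under 0.617 in limma.

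Around these genes, 84 others that act on muscle tone were listed, and 71 had a probe set with 1 symbol. In diestrus 1 of the 71, Npr2, was lower than in immature oviduct and lower than in estrus, and 0 were higher. Of all probe sets, 0.705% and 0.0922% were called lower in these comparisons and 0.294% and 0.0673% higher. In estrus 0 of 71 were called against immature, and for the mean of both mature stages 0 were called. An unadjusted p under 0.05 was found for 4 of the 71 in estrus against immature (5.63%, beside 6.52% of all probe sets) and 13 in diestrus against immature (18.3%, beside 13.4%). It was found for 11 in diestrus against estrus (15.5%, beside 9.33%) and 9 for the mature mean (12.7%, beside 10%). The medians over the 71 were -0.01, 0.04 and 0.04 for estrus minus immature, diestrus minus immature and diestrus minus estrus.

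Npr2 encodes the receptor for C-type natriuretic peptide, a guanylyl cyclase that raises cyclic GMP in muscle and in follicle cells. It read 11.15, 10.89 and 10.87 in immature oviduct, 10.996, 11.142 and 11.261 in estrus, and 10.44, 10.37 and 10.47 in diestrus. The diestrus arrays lay together, below all immature arrays, as for 10.9% of probe sets, and below all estrus arrays, as for 6.85%. Npr2 was 1.63-fold lower in diestrus than in estrus, or -0.71 ± 0.09 on the log2 scale (SE; limma adjusted p = 0.0229). Against immature the difference was -0.55 ± 0.09 (adjusted p = 0.0316). Estrus minus immature was 0.16 ± 0.09 (adjusted p = 0.832).

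Both Npr2 calls were sensitive to single arrays. The difference from immature lost its call without immature 1, 2 or 3 or diestrus 1 or 2 (-0.45, -0.59, -0.59, -0.55 and -0.52, limma adjusted p from 0.0766 to 0.125). The difference from estrus lost it without immature 2 or 3, any estrus array, or diestrus 1 or 2 (-0.64 to -0.78, adjusted p from 0.053 to 0.129). The size changed little, and without diestrus 3 both calls held (-0.57 and -0.73). With the ovarian marker mean as a covariate the differences were -0.52 and -0.66 (adjusted p = 0.0829 and 0.163), and without immature 2 and diestrus 2, the arrays high in those markers, they were -0.56 and -0.68 (0.273 and 0.296). Among the 25 listed receptors of other kinds, 24 were measured and Npr2 was the 1 called. In diestrus against immature 19 of the 24 had higher means, beside 53.6% of all probe sets, and 5 had lower means, Npr2 among them. An unadjusted limma p under 0.05 was found for 6 (25%, beside 13.4% of all probe sets).

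Among the 5 genes of endothelin processing, 0 were called. Mme, the peptidase neprilysin that breaks down endothelins and natriuretic peptides, had the largest F. It read 10.42, 10.21 and 10.34 in immature oviduct, 10.68, 11.20 and 10.30 in estrus, and 11.49, 11.33 and 11.04 in diestrus. Estrus arrays were scattered, and all diestrus arrays were above all immature ones, as for 7.52% of probe sets. Diestrus minus immature was 0.97 ± 0.20, 1.96-fold, with a limma adjusted p of 0.0602 that fell below 0.05 in 9 of 22 other settings. Ecel1, a relative of the converting enzyme, differed by 0.15 ± 0.08 in that comparison.

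Of 5 other genes of oxytocin and vasopressin 4 were measured and 0 called. The oxytocin gene Oxt stood at 9.84 ± 0.08, 9.92 ± 0.14 and 9.91 ± 0.04 in immature, estrus and diestrus oviduct (SD, n = 3 each). The renal vasopressin receptor gene Avpr2 lay below every array's median. Of 13 other adrenergic genes 6 were measured and 0 called. Slc6a2, the noradrenaline transporter, read 10.52, 10.32 and 10.42 in immature oviduct and 10.11, 9.70 and 10.09 in estrus, with no overlap. All estrus arrays lay below all immature arrays for 6.62% of probe sets. In diestrus Slc6a2 read 9.61, 9.91 and 10.35, which overlapped with the immature arrays. Its differences from immature were -0.46 ± 0.17 in estrus and -0.47 ± 0.17 in diestrus (limma adjusted p = 0.672 and 0.273). The diestrus difference was -0.30 ± 0.16 without diestrus 1, and it was called in 1 of 22 other settings, array weights (-0.56 ± 0.13, adjusted p = 0.0474). Dbh, which makes noradrenaline, had the largest F of the adrenergic list but lay below every array's median and may be background. Estrus minus immature was 0.17 ± 0.06 and diestrus minus estrus -0.18 ± 0.06 (limma adjusted p = 0.564 and 0.301). Each was called in 1 of 21 other settings.

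In the nitric oxide and cyclic GMP list 9 of 10 genes were measured and 0 called. Ddah1, which clears an inhibitor of nitric oxide synthases, stood at 10.23 ± 0.07, 10.01 ± 0.03 and 9.86 ± 0.24 (SD, n = 3 each), and diestrus minus immature was -0.37 ± 0.10 (limma adjusted p = 0.152). Without diestrus 3 it was -0.24 ± 0.07 (adjusted p = 0.141). Gucy1a1, a subunit of the nitric oxide receptor, differed by 0.25 ± 0.09 between diestrus and estrus (adjusted p = 0.37), and by 0.17 ± 0.08 without diestrus 3. Its signal lay below the array median on 8 of 9 arrays, all but diestrus 3, and may be background.

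Rgs2, which shuts off Gq signalling, had the lowest adjusted p for diestrus minus estrus after Npr2 among the 71 genes. It read 10.27, 10.42 and 10.30 in immature oviduct, 10.04, 10.26 and 9.94 in estrus, and 10.78, 10.75 and 11.47 in diestrus. All diestrus arrays were above the other 6, with diestrus 3 the highest. All diestrus arrays lay above all estrus arrays for 4.93% of probe sets and above all immature arrays for 7.52%. Diestrus minus estrus was 0.92 ± 0.17 (limma adjusted p = 0.0814), and without diestrus 3 it was 0.68 ± 0.09 (adjusted p = 0.0427). With smooth muscle markers as a covariate it was 0.74 ± 0.12 (adjusted p = 0.0676). Kcnma1, the calcium-activated potassium channel that damps contraction, differed by 0.35 ± 0.10 in the same comparison (adjusted p = 0.254). It had 2 probe sets, and this value is from the brighter. Over 22 other settings, the mean of both probe sets among them, the difference ranged from 0.26 to 0.55 and was called in 1. Diestrus minus immature for Kcnma1 was 0.36 ± 0.10 (limma adjusted p = 0.153). It ranged from 0.26 to 0.87 over those settings and was called in 0. Values of the dimmer probe set alone are not given here.

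**Figure D4:**
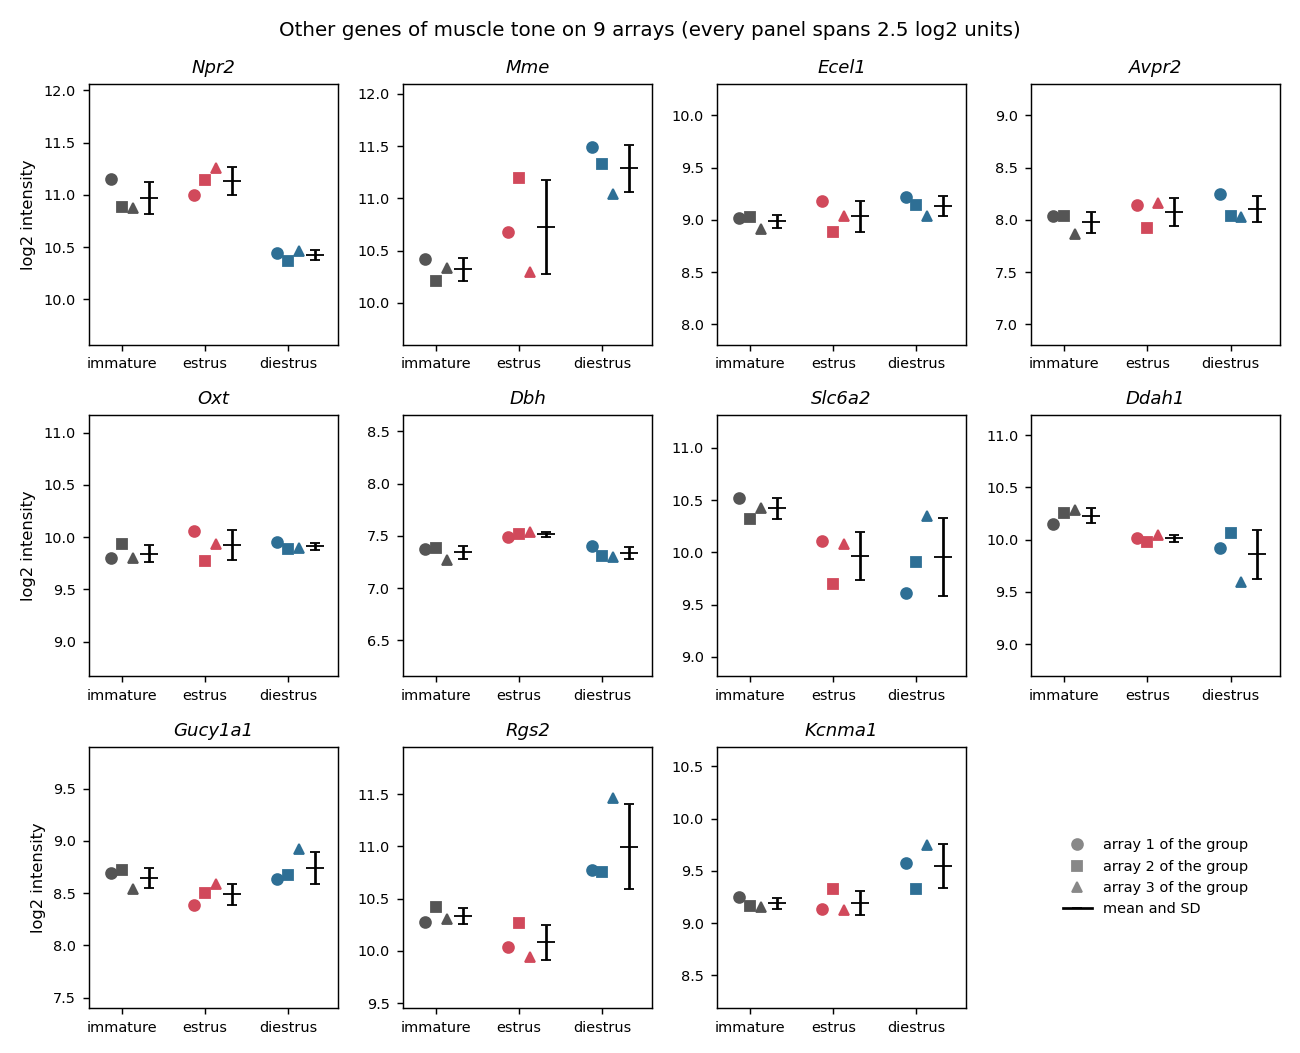
Log2 intensity (y axis, 2.5 units in every panel) of 11 other genes of muscle tone; points are arrays and bars are mean ± SD of 3 arrays. The 3 diestrus points of Npr2 lie below the other 6, those of Rgs2 lie above the other 6, and Mme is scattered in estrus.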

How the data were processed

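The authors deposited log2 intensities per probe set; per the submitters' processing notes, Affymetrix Expression Console and RMA made them, RMA being background correction, quantile normalization and median polish. The sources used here give no versions, log base or genome build; values from 4.39 to 14.6 lie where log2 RMA values lie. Symbols came from the platform annotation: 21640 of 28214 probe sets had 1 symbol, 1321 several and 5253 none. A gene with several probe sets (954 genes) is represented by its brightest.

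All probe sets were fitted together in limma 3.58.1 (R 4.3.3; lmFit, eBayes, two-sided; 6 residual and 3.60 prior degrees of freedom), with Benjamini-Hochberg adjustment over all 28214 and calls at 0.05. The method was tested on simulated data. Precision is limited by the number of arrays, with a standard error of 0.08 for a group difference at the median probe set. Genes and lists were chosen with earlier results of these data known. Named genes are the listed genes, called genes of the other lists, otherwise the 2 of a list with the largest F, and the 3 most alike by correlation for 3 members. Alternatives changed the normalization, filter, prior, weights, covariates, threshold and arrays. The count for 1 of the lists of other genes is not reported here.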

Additional observations from a re-analysis of the deposited data

Results flagged for a closer look

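Npr2 moved in opposite directions from the immature level at the 2 mature stages, 0.16 ± 0.09 in estrus and -0.55 ± 0.09 in diestrus. The difference between these, which is diestrus minus estrus, was -0.71 ± 0.09 (limma adjusted p = 0.0229, with a range of 0.000326 to 0.296 over 22 other settings). The estrus difference did not pass the test on its own. The outlier test for single samples was not applied, since it needs groups of at least 4.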

How the results depend on the processing

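With 3 pools a group, the intervals given above leave room for differences in intensity that were not called. An interval that excludes 0 is not enough for a call: Rgs2 in diestrus minus estrus, at 0.92 with an interval of 0.53 to 1.30, was not called. Signal of 4 of the 7 genes (Edn2, Edn3, Oxtr, Avpr1a) lay below every array's median, so changes in their RNA may be understated. These 4 were removed by the filter on low values, which left 3 genes. Of 593 member differences recomputed under 22 settings, 2 were called, both with array weights and both for diestrus minus estrus: Edn1 at 0.39 ± 0.09 and Avpr1a at 0.23 ± 0.05 (limma adjusted p = 0.0207 and 0.0247), where 11.8% of probe sets were called. Those weights were 8.16 for estrus 3 and 0.325 to 2.16 for the other arrays, and the F test then called 2 members. The share of all probe sets called by that F test was not computed. Without array weights the lowest adjusted p of a member was 0.261. The sign turned in 43 of the 593, none of them called. In Edn1 the diestrus difference from immature went from 0.06 to -0.07 without the 2 arrays high in ovarian genes, and in Avpr1a the mature difference went from 0.05 to -0.04 with array weights.

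The 1 other gene of muscle tone called in diestrus against immature became 0 with the replicate block, cyclic loess, ovarian markers as a covariate, without the 2 ovarian-rich arrays, at an adjusted p under 0.01 and at 2-fold. It became 2 with probe sets of 1 symbol only, 3 with gene means, 3 with muscle markers as a covariate, 4 with the low filter and 5 with array weights. Leaving out 1 array gave 0 to 3. For diestrus against estrus the count of 1 became 0 with the replicate block, with only the arrays compared, with ovarian markers as a covariate, without the 2 ovarian-rich arrays, at 0.01 and at 2-fold. It became 2 with the low filter or gene means and 13 with array weights, and leaving out 1 array gave 0 to 2. Counts of 0 became 2 with array weights for estrus and for the mature mean against immature. For the mature mean the count was 1 with muscle markers as a covariate and 0 to 1 with 1 array left out. The share of all probe sets called also changed with the settings. The paragraphs before and after this one give it for some settings and otherwise only as a range. It is not beside each count. These counts are therefore not read as a result about the listed genes. The causes were not tested.

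Arrays of different groups share only a number: deviations of same-numbered arrays correlated at -0.29 to 0.17, over 0.1 in 3 of 9 pairs, and the replicate block cut the share of all probe sets called for diestrus minus immature from 1% to 0.429%. That share ranged from 0.0354% without the 2 ovarian-rich arrays to 4.57% with array weights. For estrus minus immature it ranged from 0.00354% without immature 3 to 3.63%, for diestrus minus estrus from 0% to 11.8%, and for the mature mean from 0.0319% to 2.05%.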
